A study of Mus musculus with 10 samples.

Results

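The genes described here are 10 regulators and markers of primitive endoderm, the extraembryonic lineage that lines the blastocoel: Gata6, Gata4, Sox17, Sox7, Pdgfra, Hnf4a, Foxq1, Dab2, Cubn and Sparc. They are a list of gene names, found in these tables by symbol, out of 21853 genes in the expression tables, and all 10 were listed in every table. RNA-seq was performed on 5 lines of mouse J1 embryonic stem cells (ESCs), with 2 libraries each. Wild-type naïve J1 ESCs, AMPK-knockout ESCs (AKO), glycogen synthase Gys1-knockout ESCs (GKO) and ESCs lacking both (DKO) were naïve lines, for which the labels give gelatin, serum, LIF at 1000 U/ml and 2 inhibitors (2i), PD0325901 at 1 µM against MEK and CHIR99021 at 3 µM against GSK3. Primed ESCs (PJ1) were the same J1 background, wild type for both targets, on Matrigel with bFgf at 10 ng/ml and Activin at 20 ng/ml, so that state and medium changed together and cannot be told apart. Per the study's methods, the AMPK knockout targeted Prkaa1 by Cas9 with a reporter plasmid, sorted and pooled, and the Gys1 knockout came from single colonies carrying small indels. Neither the clones behind each library nor whether a pair of libraries came from separate cultures is stated, so p-values measure only the spread between these libraries.

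Primitive endoderm and epiblast separate from the same inner cell mass. FGF4 made by epiblast cells signals through FGF receptors and the MEK-ERK kinases, which raises Gata6 against Nanog, and Gata6 is followed by Sox17, Gata4 and Sox7. The lineage then secretes the laminin and collagen IV basement membrane and takes up maternal proteins by endocytosis. 2i medium blocks MEK and with it this input. ESC cultures can hold a few such cells, and bulk RNA cannot tell fewer cells of a type from less RNA per cell.

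Values are TPM, the share of transcripts that RSEM estimates per gene, scaled for library depth and transcript length, so levels may be compared between genes. Depth is unknown from TPM. The listed genes summed to 500162 to 578952 TPM per library, since the tables list protein-coding genes only, and 10537 to 11113 genes reached 1 TPM. Fold changes are differences in log2(TPM + 1), which understate the change of low genes, fitted with limma over 12060 genes that reached 1 TPM in at least 2 libraries, and a call is a Benjamini-Hochberg adjusted p under 0.05. With 2 libraries against 2, an exact permutation test cannot go below p = 0.333. As a check of the labels, Prkaa1 read 15.5 and 16.6 TPM in the naïve libraries, 7.24 and 6.94 TPM with AMPK knocked out and 2.30 and 2.04 TPM in DKO ESCs. Prkaa2, the other AMPK alpha gene, was not targeted and averaged 2.40 TPM in naïve, 2.57 TPM in AKO and 3.20 TPM in DKO ESCs. AMPK knockout here therefore means the Prkaa1 edit. Gys1 read 11.5 and 10.8 TPM in the naïve libraries, 9.70 and 9.98 TPM in the GKO libraries and 12.1 and 11.7 TPM in the DKO libraries, and since a small indel need not lower the RNA, this level does not check the GKO and DKO labels.

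Of the 10 genes, 5 passed the filter on low values: Gata4, which did so through its level in GKO ESCs, Foxq1 and Dab2, which did so through primed ESCs, and Hnf4a and Sparc. In the naïve lines Gata6, Sox17, Sox7, Pdgfra and Cubn stood below 0.3 TPM in every library. Hence the label holds as a list of genes and not as a description of these cultures: Sparc was abundant, Hnf4a moderate, and the genes that define the lineage were near 0, while the epiblast factors Nanog and Pou5f1 stood at 429 to 521 TPM and 705 to 838 TPM in the naïve lines.

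**Figure D1:**
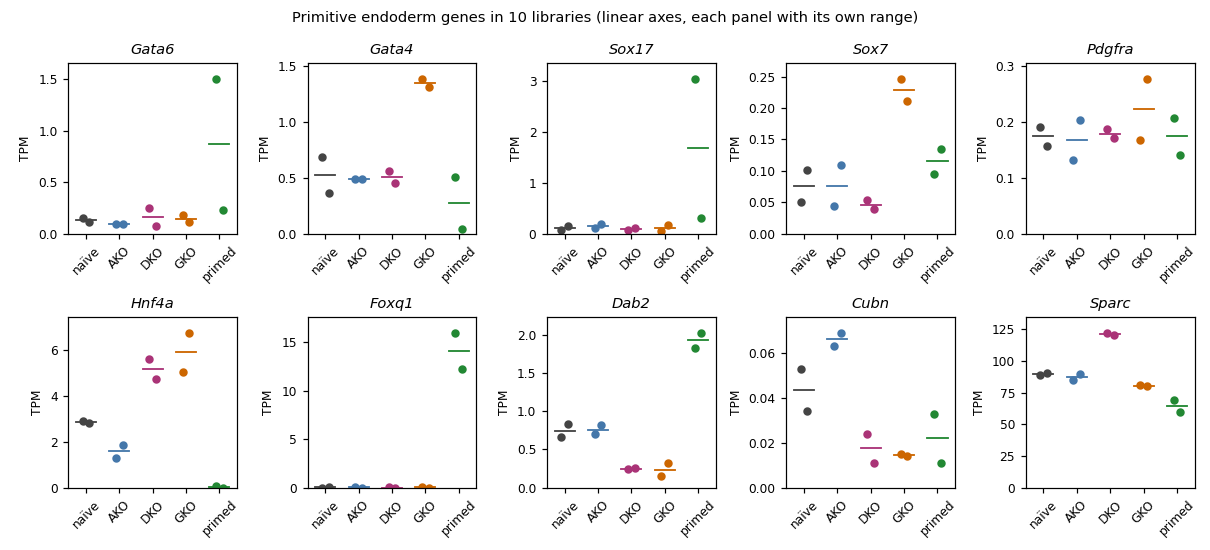
TPM of the 10 primitive endoderm genes (linear y axes from 0, a range for each panel) in naïve, AKO, DKO, GKO and primed ESCs; points are libraries and lines are means of 2. Gata4 and Sox7 stood highest in GKO ESCs, Hnf4a was higher and Dab2 lower in both GKO and DKO ESCs, Sparc was highest in DKO ESCs, and 1 primed library carried most of the Gata6 and Sox17 signal.

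The comparison of GKO with naïve ESCs reads these genes in lines that differ in Gys1, where Gys1 loss and line cannot be told apart. Gata4 and Hnf4a rose, Dab2 fell, and Sparc and Foxq1 did not pass the test. That is 3 of the 5 tested genes called, where 51.7% of all tested genes were called in the same comparison, so the count itself stands near the background. As Gata4, Foxq1 and Dab2 were tested only because 1 line carried them past the filter, these counts describe the tested genes and support nothing further. In DKO ESCs, 3 of 5 were also called, against a background of 46.0%, and here Hnf4a and Sparc rose and Dab2 fell. In AKO ESCs none of the 5 was called by limma, the only tool run, against a background of 0.224%, and 1 of them, Hnf4a, had an unadjusted p under 0.05.

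**Figure D2:**
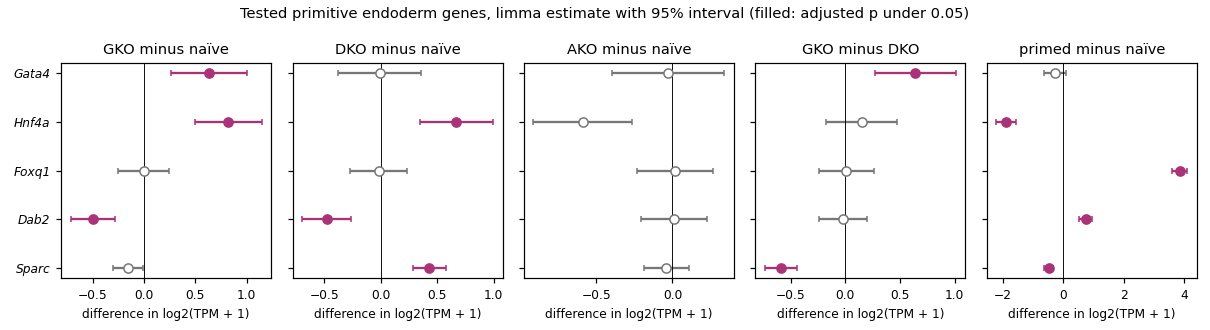
Difference in log2(TPM + 1) for the 5 tested genes in each comparison, as the limma estimate with its 95% confidence interval (x axes differ between panels; filled points have an adjusted p under 0.05). Gata4 was higher in GKO ESCs than in both naïve and DKO ESCs, Sparc was higher in DKO ESCs, and Hnf4a and Dab2 moved the same way in GKO and DKO ESCs.

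Gata6 is the GATA factor that starts the lineage. The naïve libraries gave 0.152 and 0.113 TPM, the AKO libraries 0.090 and 0.095 TPM, the DKO libraries 0.245 and 0.076 TPM, and the GKO libraries 0.182 and 0.109 TPM. The DKO and GKO libraries overlapped the naïve ones, the AKO libraries lay just below them, and the gene was too low to be tested. In primed ESCs it was listed at 1.51 TPM in the first library and at 0.225 TPM in the second.

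Gata4 acts downstream of Gata6 and drives visceral and parietal endoderm genes. The naïve libraries gave 0.685 and 0.363 TPM, both AKO libraries 0.485 TPM, the DKO libraries 0.560 and 0.451 TPM, the GKO libraries 1.39 and 1.31 TPM, and the primed libraries 0.502 and 0.041 TPM. Both GKO libraries thus lay above all 8 others, which overlapped one another. The GKO mean was 2.57 times the naïve mean and 2.66 times the DKO mean on the TPM scale. On the log2 scale Gata4 rose by 0.63 over naïve ESCs (SE 0.16, adjusted p = 0.0109) and stood 0.64 above DKO ESCs (SE 0.16, adjusted p = 0.0124). Gata4 passed the filter through these same GKO libraries, and without a filter the adjusted p was 0.0246 and 0.0277. The difference from DKO ESCs was among 2 calls in 5 tested genes, against a background of 43.5%. The call over naïve ESCs was lost with a pseudocount of 0.1 (adjusted p = 0.0876), without naïve library 2 (adjusted p = 0.0852) and without GKO library 1 (adjusted p = 0.0581), and the call over DKO ESCs was lost without DKO library 2 (adjusted p = 0.0745), without GKO library 1 (adjusted p = 0.0660) and without GKO library 2 (adjusted p = 0.0507). Over all alternatives the adjusted p ran from 0.000731 to 0.0876 for the first of these and from 0.000889 to 0.0988 for the second. The GKO change over naïve ESCs minus the DKO change over AKO ESCs was also tested. Prkaa1 averaged 7.09 TPM in AKO and 2.17 TPM in DKO ESCs. As the clones are not stated either, Gys1 loss and line cannot be told apart in this difference. For Gata4 this difference was 0.61 (95% interval 0.09 to 1.14, adjusted p = 0.0838), which did not pass. It passed once the 2 primed libraries were left out (adjusted p = 0.00999, and from 0.00972 to 0.291 over all alternatives), where the value stayed at 0.61. In that setting 4499 of 12060 tested genes were called. Without a filter the adjusted p was 0.137 with all libraries and 0.0236 without the primed ones. As Gata4 was tested through its GKO libraries, which enter this difference, the call supports nothing further. Zfpm1, which encodes the GATA cofactor FOG1, was likewise highest in the GKO libraries, at 3.33 and 3.59 TPM beside 1.37 and 1.28 TPM in the naïve and 1.22 and 1.33 TPM in the DKO libraries, with a rise of 0.94 in GKO over naïve ESCs (adjusted p = 7.78e-05).

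Sox7 is the SRY-box factor that follows Sox17 and marks parietal endoderm. Its levels of 0.247 and 0.212 TPM in GKO ESCs were above those of every other library, which ranged from 0.039 to 0.135 TPM. The gene stayed below the filter. When every gene with a value above 0 was fitted, Sox7 was 0.19 higher in GKO than in naïve ESCs on the log2(TPM + 1) scale (adjusted p = 0.00698, and 0.00676 when the primed libraries were left out as well) and 0.23 higher than in DKO ESCs (adjusted p = 0.00414, and 0.00405). The GKO mean was 3.04 times the naïve mean, at a level where both are a small share of 1 TPM.

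Gata4 and Sox7 lie close together on mouse chromosome 14. In GRCm39, Gata4 spans chr14:63436362-63509141 on the minus strand and Sox7 spans chr14:64181006-64188352 on the plus strand, with 0.672 Mb between them. Of the 392 tested genes of this chromosome, 304 rose and 6 fell in GKO ESCs, with a median change of 0.47, and 259 rose and 10 fell in DKO ESCs, with a median of 0.36. In primed ESCs 275 rose and 62 fell, with a median of 0.54, and in AKO ESCs the median was -0.01. Taken relative to the chromosome median, the Gata4 change in GKO ESCs was 0.16 and the Sox7 change was -0.28. The Gata4 value in primed ESCs went from -0.28 to -0.82. These remainders are not on a like scale, as adding 1 TPM shrinks the changes of genes this low more than those of higher genes. The negative value of Sox7 therefore does not mean that it rose less than its chromosome. On the TPM scale, its GKO mean was 3.04 times the naïve mean, and that of Gata4 2.57 times. In DKO ESCs, where the chromosome was also shifted, Gata4 differed from naïve ESCs by -0.01 (SE 0.16, adjusted p = 0.967). The 10 tested genes within 1000000 bases of Gata4 had a median change of 0.35 in GKO ESCs, of which 6 rose, and of 0.45 in DKO ESCs, of which 5 rose and 1 fell. The part of this chromosome-wide shift in the Gata4 and Sox7 values was not tested.

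**Figure D3:**
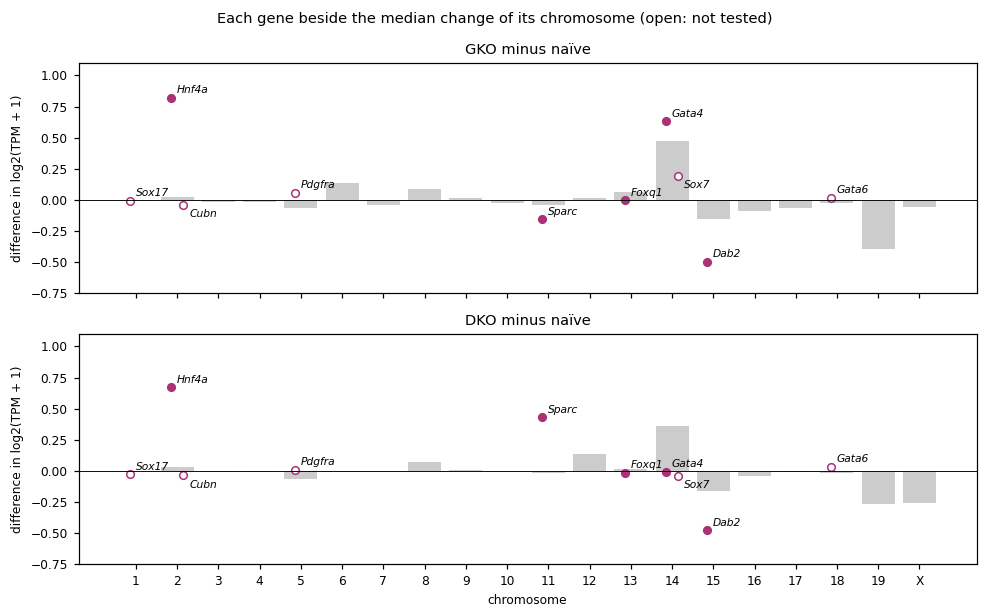
Difference in log2(TPM + 1) from naïve ESCs for each primitive endoderm gene (points, open where not tested) beside the median over the tested genes of each chromosome (grey bars), for GKO ESCs above and DKO ESCs below; the x axis is the chromosome. The chromosome 14 median was 0.47 in GKO and 0.36 in DKO ESCs, and Gata4 stood above it in GKO but not in DKO ESCs. Adding 1 TPM shrinks the changes of genes below 1 TPM, so their points and the bars are not on a like scale.

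Sox17, the endoderm SOX factor, was listed at 0.044 to 0.183 TPM over all 8 libraries of the naïve lines, which overlapped from line to line. In primed ESCs it stood at 3.04 TPM in the first library and at 0.303 TPM in the second. Pdgfra, the PDGF receptor on the surface of primitive endoderm cells, ranged from 0.131 to 0.277 TPM over all 10 libraries, and the primed values of 0.207 and 0.141 TPM lay inside the range of the naïve lines. Its ligand Pdgfa read 49.1 and 51.5 TPM in the naïve libraries and 51.0 and 49.3 TPM in the GKO libraries, and rose in DKO ESCs to 64.9 and 69.4 TPM (change 0.41, adjusted p = 0.00253). The related receptor Pdgfrb, at 0.394 and 0.370 TPM in the naïve libraries, rose to 1.569 and 1.498 TPM in GKO ESCs (change 0.87, adjusted p = 2.21e-05) and to 1.03 and 0.992 TPM in DKO ESCs (change 0.54, adjusted p = 0.000358). Pdgfrb passed the filter only through libraries of GKO and DKO ESCs, the lines where it stood high, so these calls support nothing further.

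Hnf4a encodes the nuclear receptor that runs the transport and lipoprotein genes of visceral endoderm and, later, liver. It was compared in GKO and in DKO ESCs with the same naïve libraries. The naïve libraries gave 2.92 and 2.83 TPM, the GKO libraries 5.04 and 6.76 TPM, the DKO libraries 5.62 and 4.75 TPM, the AKO libraries 1.31 and 1.87 TPM, and the first primed library 0.068 TPM, with the second listed at 0. All 4 libraries without Gys1 lay above all others, GKO and DKO libraries overlapped, and AKO libraries lay below the naïve ones. The mean was 2.05 times the naïve mean in GKO ESCs (change 0.82, SE 0.14, adjusted p = 0.00138) and 1.80 times in DKO ESCs (change 0.67, SE 0.14, adjusted p = 0.00464). The GKO and DKO levels differed by 0.15 (95% interval -0.17 to 0.47, adjusted p = 0.429). The AKO value was -0.59 relative to naïve ESCs (SE 0.14, unadjusted p = 0.00274, adjusted p = 0.176) and was no call. The GKO change over naïve ESCs minus the DKO change over AKO ESCs was -0.44 (95% interval -0.90 to 0.02, adjusted p = 0.144). In primed ESCs Hnf4a fell by 1.91 (adjusted p = 1.75e-06). Its chromosome, 2, showed a median change of 0.02 in GKO ESCs and 0.03 in DKO ESCs.

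Products and receptors of visceral endoderm were read beside Hnf4a. Afp, Ttr, Apoa4 and S100g stood at 0.045 TPM or lower in every library. Of 18 genes listed for visceral endoderm, 7 were tested, and in GKO ESCs none rose and 2 fell, where 24.7% of all tested genes rose and 27.1% fell, with a median of 0.05 over the 7 beside -0.01 over all tested genes. The 2 were the endocytic receptor Lrp2, from 2.08 and 2.18 to 1.08 and 0.973 TPM (change -0.63, adjusted p = 0.00133), and the lipoprotein component Apom, from 1.34 and 1.11 to 0.458 and 0.637 TPM (change -0.52, adjusted p = 0.0025). In DKO ESCs Lrp2 fell by 0.65 (adjusted p = 0.00135), while Apom rose by 0.35 (adjusted p = 0.0204). Apob, a known target of HNF4A in liver, read 0.264 and 0.244 TPM in the naïve, 0.013 and 0.048 TPM in the GKO and 0.245 and 0.274 TPM in the DKO libraries. It was below the filter, and without a filter it was 0.28 lower in GKO than in naïve ESCs (change -0.28, adjusted p = 0.000363) and 0.01 apart in DKO ESCs (adjusted p = 0.956). Amn, the membrane partner of cubilin, was likewise below the filter, at 0.185 and 0.235 TPM in the naïve libraries and 0.591 and 0.609 TPM in the DKO libraries, where it was 0.40 higher without a filter (adjusted p = 0.00231).

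Hnf4a lies at chr2:163348728-163414830 (GRCm39, plus strand) and is read from a pair of promoters, of which the upstream one is known from pancreas and gut and the downstream one from liver. RefSeq start sites on the GRCm38.p6 build give 250 bases before each start, and the tables hold 1 value per gene, so which promoter was used was not measured. The windows are shown because Hnf4a was higher in both Gys1-knockout lines. Capitals mark matches to TGATAA or AGATAA (bound by GATA factors), ATTGT (bound by SOX factors) or CAAAG (part of the site bound by HNF4), searched on both strands, with no overlap among the matches. The first window is chr2:163506607-163506856 and the second chr2:163546905-163547154, both on the plus strand.
Hnf4a first promoter: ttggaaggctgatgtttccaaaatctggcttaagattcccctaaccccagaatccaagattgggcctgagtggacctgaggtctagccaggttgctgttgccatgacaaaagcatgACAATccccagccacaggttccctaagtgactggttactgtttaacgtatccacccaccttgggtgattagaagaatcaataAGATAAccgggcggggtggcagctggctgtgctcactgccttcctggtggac
Hnf4a second promoter: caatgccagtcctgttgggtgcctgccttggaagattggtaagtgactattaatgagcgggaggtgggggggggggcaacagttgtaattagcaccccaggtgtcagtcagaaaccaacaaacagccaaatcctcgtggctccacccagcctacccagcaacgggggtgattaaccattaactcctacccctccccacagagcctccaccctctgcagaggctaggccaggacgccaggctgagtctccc
The first window held AGATAA at bases 52 to 47 before the start and ATTGT on the other strand at bases 134 to 130, and the second held none of these letters. Of 32851 promoter windows of the same length, 9.99% held AGATAA and 27.7% held ATTGT. A match is a description of the letters and no measure of binding.

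Dab2 encodes the endocytic adaptor that sorts cargo and polarises the primitive endoderm epithelium, and Cubn and Lrp2 encode the receptors it serves. The naïve libraries gave 0.665 and 0.826 TPM of Dab2, the AKO libraries 0.696 and 0.822 TPM, the DKO libraries 0.240 and 0.261 TPM, the GKO libraries 0.149 and 0.325 TPM, and the primed libraries 1.83 and 2.02 TPM. The naïve and AKO libraries overlapped, those of GKO and DKO ESCs overlapped below them, and primed ESCs stood above all. The mean in GKO ESCs was 0.318 times that of naïve ESCs (change -0.50, SE 0.10, adjusted p = 0.00234) and in DKO ESCs 0.336 times (change -0.48, SE 0.10, adjusted p = 0.00334). The GKO and DKO changes differed by -0.02 (95% interval -0.24 to 0.20). In primed ESCs, the line through which it passed the filter, Dab2 stood 0.75 above naïve ESCs (adjusted p = 7.03e-05, and 0.000154 without a filter). Dab2 spans chr15:6329269-6470196 (GRCm39, plus strand), 1117519 bases from Prkaa1, the gene edited in AKO and DKO ESCs, and AKO ESCs differed from naïve ESCs by 0.01 (95% interval -0.21 to 0.23). Its chromosome, 15, had a median change of -0.15 in GKO ESCs and -0.16 in DKO ESCs. Relative to that the Dab2 changes were -0.35 and -0.32, with the limit of scale given for Gata4 and Sox7. Lrp2, set against the same naïve libraries, fell in GKO and DKO ESCs as given above and rose by 2.22 in primed ESCs (adjusted p = 1.02e-07), where it reached 15.414 and 11.985 TPM. Cubn, with 0.053 and 0.034 TPM in the naïve libraries and at most 0.069 TPM in any, was too low to be tested.

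The RefSeq windows of Dab2 are shown for the same reason, as its level was lower in both Gys1-knockout lines. The first lies at chr15:6299539-6299788 and the second at chr15:6386498-6386747 (GRCm38.p6, plus strand), 250 bases each, with capitals as above.
Dab2 first promoter: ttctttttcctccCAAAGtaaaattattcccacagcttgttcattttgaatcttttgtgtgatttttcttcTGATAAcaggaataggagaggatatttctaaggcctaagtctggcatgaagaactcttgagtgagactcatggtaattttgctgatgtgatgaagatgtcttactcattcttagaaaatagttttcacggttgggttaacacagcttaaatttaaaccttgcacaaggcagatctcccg
Dab2 second promoter: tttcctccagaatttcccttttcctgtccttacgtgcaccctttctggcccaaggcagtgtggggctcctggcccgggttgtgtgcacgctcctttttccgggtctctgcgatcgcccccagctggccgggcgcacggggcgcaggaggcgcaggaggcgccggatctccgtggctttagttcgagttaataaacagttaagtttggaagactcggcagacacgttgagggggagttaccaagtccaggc
The first window held TGATAA at bases 179 to 174 before the start and CAAAG at bases 237 to 233, and was 36.8% G or C with 2 CpG. The second held none of the motifs and was 60% G or C with 17 CpG. TGATAA stood in 7.94% and CAAAG in 48.6% of the 32851 windows. RefSeq windows were matched for 5 of the 10 genes, Hnf4a, Dab2, Sparc, Cubn and Pdgfra.

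Sparc encodes osteonectin, a collagen-binding glycoprotein that parietal endoderm secretes in large amounts. It was the most abundant of the 10 genes in every library. The naïve libraries gave 88.7 and 90.8 TPM, the AKO libraries 84.7 and 89.7 TPM, the DKO libraries 122.3 and 120.4 TPM, the GKO libraries 80.7 and 80.2 TPM, and the primed libraries 68.8 and 59.4 TPM. The lines did not overlap, except AKO with naïve ESCs. Sparc was 1.35 times the naïve mean in DKO ESCs (change 0.43, SE 0.07, adjusted p = 0.000795). In GKO ESCs the change was -0.16 (SE 0.07, adjusted p = 0.0737), which did not pass, but did once the primed libraries were left out (adjusted p = 0.00734, and from that to 0.435 over all alternatives). GKO ESCs stood 0.59 below DKO ESCs (adjusted p = 0.000173). The GKO change over naïve ESCs differed from the DKO change over AKO ESCs by -0.63 (SE 0.09, adjusted p = 0.00174). As for Gata4, Gys1 loss and line cannot be told apart in this difference. In that comparison 25.8% of all tested genes were called, and Sparc was the only 1 of the 5. In primed ESCs Sparc fell by 0.48 (adjusted p = 0.000103). It lies at chr11:55285317-55314067 (GRCm39, minus strand), and the median change of chromosome 11 was -0.04 in GKO ESCs, -0.02 in DKO ESCs and 0.30 in primed ESCs, relative to which Sparc in primed ESCs was at -0.78.

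Other matrix genes, which parietal endoderm makes together with Sparc, moved in both directions. Of 16 listed, 14 were tested. In GKO ESCs 6 rose and 2 fell, where 24.7% of all tested genes rose and 27.1% fell. In DKO ESCs 5 rose and 5 fell, where 21.7% rose and 24.3% fell. In AKO ESCs 1 rose, Lamb1 (change 0.56, adjusted p = 0.0281), where 0.224% of all tested genes were called in either direction. The list median was 0.17 in GKO ESCs and 0.02 in DKO ESCs, against -0.01 over all tested genes in each. Nid1 (nidogen, which links laminin to collagen IV) rose from 20.0 and 20.5 TPM to 43.1 and 41.5 TPM in DKO ESCs (change 1.02, adjusted p = 1.66e-05) and to 34.9 and 35.1 TPM in GKO ESCs (change 0.76, adjusted p = 5.53e-05). Hspg2 (perlecan) rose from 18.4 and 19.2 to 37.6 TPM in both DKO libraries (change 0.97, adjusted p = 1.23e-05). The collagen IV chain Col4a1 fell from 4.35 and 4.36 to 1.74 and 1.84 TPM in DKO ESCs (change -0.94, adjusted p = 5.69e-05), and was 4.97 and 5.15 TPM in GKO ESCs (change 0.18, adjusted p = 0.116). Its partner chain Col4a2 rose from 1.032 and 1.045 TPM to 2.03 and 2.13 TPM in GKO ESCs (change 0.59, adjusted p = 0.000812). The collagen chaperone Serpinh1 rose by 0.54 in GKO ESCs (adjusted p = 0.000618) and fell by 0.46 in DKO ESCs (adjusted p = 0.00173). Fibronectin, Fn1, fell from 131 and 136 to 96.8 and 92.8 TPM in GKO ESCs (change -0.49, adjusted p = 9.29e-05). Thus Sparc and Col4a1 were ordered oppositely between GKO and DKO ESCs, with Col4a1 higher in GKO ESCs (adjusted p = 2.59e-05).

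**Figure D4:**
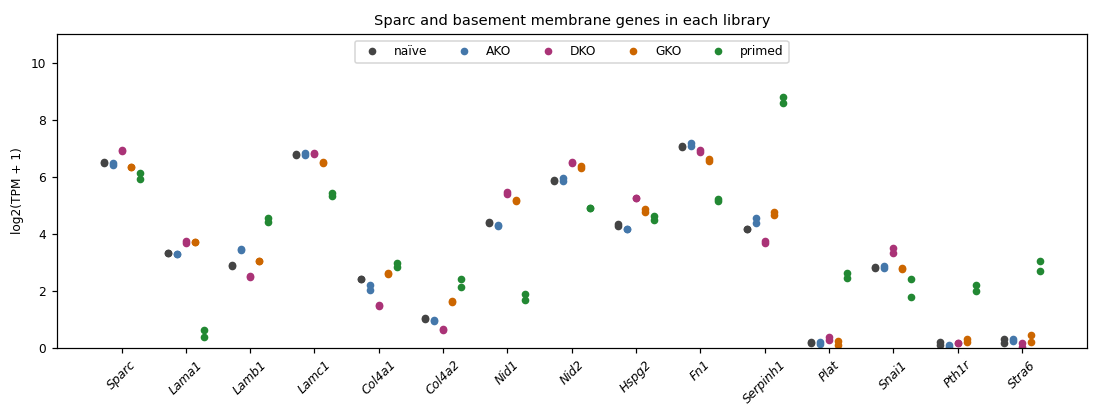
Level in log2(TPM + 1) of Sparc and the 14 tested matrix genes in every library, coloured by line. Sparc, Nid1 and Hspg2 stood highest in DKO ESCs among the naïve lines, Col4a1, Col4a2 and Serpinh1 stood lowest there, and Serpinh1 was far higher in primed ESCs.

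Foxq1, a forkhead factor, was near 0 in the naïve lines, with 0.008 to 0.063 TPM over their 8 libraries, and stood at 16.0 and 12.2 TPM in primed ESCs. The primed libraries, through which it passed the filter, stood 3.86 above the naïve ones (SE 0.11, adjusted p = 3.58e-09, and 1.19e-07 without a filter). It lies at chr13:31740117-31744959 (GRCm39, plus strand). In GKO and DKO ESCs its differences from naïve ESCs were -0.01 and -0.02. In primed ESCs 4 of the 5 tested genes were called, against a background of 80.0%: Foxq1 and Dab2 were higher, both having passed the filter through these libraries, and Hnf4a and Sparc fell. Of the 14 matrix genes, 8 rose and 6 fell there, beside 37.4% and 42.5% of all tested genes. Plat, Pth1r and Stra6, among the 8, passed the filter only through the primed libraries, so their rises support nothing further. Serpinh1 rose by 4.55 (adjusted p = 2.67e-10), and Lama1 fell by 2.82 (adjusted p = 5.08e-09).

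Of the 10 genes, 8 were higher in the first primed library. Of all 21853 genes, 8533 were higher in the first, 7636 in the second and 5684 tied. Sox17, Gata6 and Gata4 differed most on the log2 scale. The gaps of Dab2 and Hnf4a were wider than those of only 39.9% and 39.6% of tested genes. Gata6 differed 6.69-fold between the 2 primed libraries and Gata4 12.2-fold. The first also held more of all 8 markers of definitive endoderm and mesendoderm, cells that express Sox17 and Gata6 as well: their summed level was 48.5 TPM in the first library and 5.89 TPM in the second, 8.23-fold. Cer1 was 9.80 and 0.484 TPM, Lhx1 5.16 and 0.338 TPM, and Foxa2 1.79 and 0.065 TPM. Among all tested genes, 79 were more than 1 log2 unit higher in the first primed library and 21 in the second. Without the filter, neither Sox17 (adjusted p = 0.0732) nor Gata6 (adjusted p = 0.0902) was called in primed over naïve ESCs. Leaving out the first primed library made Gata4 a call in primed ESCs (change -0.54, adjusted p = 0.00276), from -0.28 (adjusted p = 0.145) with both, and over all alternatives its adjusted p ran up to 0.926. The part of mesendoderm markers in the Gata6 and Sox17 values was not tested.

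**Figure D5:**
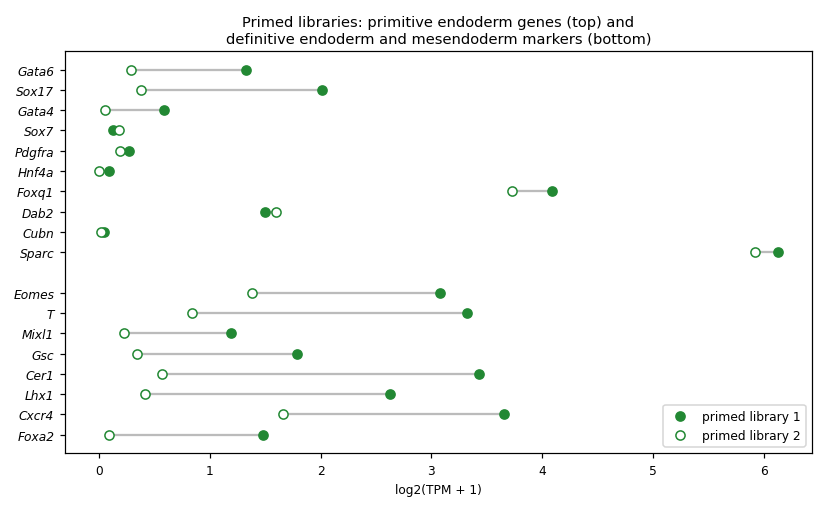
Level in log2(TPM + 1) in primed library 1 (filled) and primed library 2 (open) for the 10 primitive endoderm genes (top) and 8 definitive endoderm and mesendoderm markers (bottom). All 8 markers and 8 of the 10 genes stood higher in library 1, with the widest gaps for Sox17 and Gata6 among the 10. Of all 21853 genes, 8533 stood higher in library 1 and 7636 in library 2.

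The FGF-ERK input to Gata6 was examined through 16 genes, all of which were tested. In GKO ESCs 4 rose and 4 fell, with a median of 0.05, near the 24.7% and 27.1% of all tested genes. In DKO ESCs 1 rose and 2 fell, with a median of -0.03, beside 21.7% and 24.3%. Spry2, a feedback inhibitor of receptor kinases, rose from 24.2 and 22.3 TPM to 70.6 and 63.0 TPM in GKO ESCs (change 1.48, adjusted p = 1.56e-06) and to 59.0 and 56.8 TPM in DKO ESCs (change 1.28, adjusted p = 4.7e-06). In AKO ESCs it fell to 16.1 and 16.6 TPM (change -0.48, adjusted p = 0.042), and the order of the line means was the one seen for Hnf4a. Spry4 fell by 0.79 in GKO ESCs (adjusted p = 0.0206). The ligand Fgf4 fell from 80.5 and 88.1 TPM to 71.2 and 73.1 TPM in GKO ESCs (change -0.22, adjusted p = 0.0355). Fgfr2, the receptor that primitive endoderm carries, was at or below 0.365 TPM in all naïve lines. It rose from 0.105 and 0.048 TPM in the naïve to 0.365 and 0.283 TPM in the GKO libraries (change 0.30, adjusted p = 0.0397). Without a filter the adjusted p of that rise was 0.0577. In primed ESCs, the line through which it passed the filter, Fgfr2 reached 19.1 and 23.7 TPM (change 4.37, adjusted p = 1.24e-09, and 5.86e-08 without a filter). Of 8 epiblast factors, 3 rose and none fell in GKO ESCs and likewise in DKO ESCs, where 24.7% and 21.7% of all tested genes rose, among them Esrrb by 0.37 (adjusted p = 0.000158) and 0.42 (adjusted p = 0.000117). In primed ESCs all 8 fell, beside 42.5% of all tested genes.

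Markers of other cells were read beside these values. Trophectoderm markers summed to 29.6 to 32.0 TPM in naïve and AKO ESCs, 43.5 and 44.7 TPM in DKO ESCs and 60.3 and 62.2 TPM in GKO ESCs. Of the 5 tested, 4 rose in GKO and 4 in DKO ESCs, beside 24.7% and 21.7% of all tested genes. Cdx2, Krt8 and Krt18 rose in both, Tead4 only in DKO ESCs, and Tfap2c only in GKO ESCs, with 6.57 and 6.71 TPM in DKO ESCs. Among them Cdx2 rose in GKO ESCs from 2.57 and 2.66 to 6.62 and 7.27 TPM (change 1.13, adjusted p = 0.000283) and Tfap2c from 6.68 and 6.29 to 23.2 and 24.3 TPM (change 1.72, adjusted p = 0.00217), while Elf5 stayed at or below 0.182 TPM. Gata3, a trophectoderm factor below the filter, went the other way, from 0.911 and 0.629 TPM in the naïve to 0.048 and 0.101 TPM in the GKO libraries (change -0.72 without a filter, adjusted p = 0.00108). Fibroblast markers, which share Sparc and Pdgfra with primitive endoderm, summed to 6.48 to 7.08 TPM in naïve and AKO ESCs, 4.95 and 4.45 TPM in DKO ESCs, 10.5 and 11.8 TPM in GKO ESCs, and 11.7 and 17.4 TPM in primed ESCs. Of the 5 tested, 3 rose and 1 fell in GKO ESCs, beside 24.7% and 27.1% of all tested genes. Thy1 rose by 1.24 (adjusted p = 0.0131), Col1a1 by 0.47 (adjusted p = 0.000954) and Pdgfrb as given above, with the same limit from the filter. Col1a1 passed the filter only through the primed libraries and stood at 0.739 TPM or lower in the naïve lines. Twist1 fell by 1.13 (adjusted p = 0.000121). The same 3 were higher in GKO than in DKO ESCs, where 43.5% of all tested genes were called in either direction. Dcn, Lum and Postn stood at 0.113 TPM or lower in every library, and the part of these markers in the values of the primitive endoderm genes was not tested. Endothelial markers, which share Sox7 and Sox17, summed to 19.3 to 30.9 TPM in the naïve lines, nearly all of it Pecam1, which ESCs express, and Cdh5 and Emcn stood at 0.007 TPM or lower.

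The genes whose pattern over the 10 libraries was most like that of each tested member were ranked by Pearson's r on the log2 scale, as a description in which libraries of a line share their state. For Hnf4a these were Arhgap9 (r = 0.983), Med19 (r = 0.983) and Aplf (r = 0.982), for Dab2 Zfp512 (r = 0.987), Epb41 (r = 0.987) and Pfn2 (r = 0.986), and for Gata4 Tprkb (r = 0.966), Anapc4 (r = 0.942) and Slc12a2 (r = 0.941). For Sparc they were Ckb (r = 0.990), Leo1 (r = 0.987) and Islr2 (r = 0.987), and Ckb, the brain creatine kinase, averaged 180 TPM in naïve, 498 TPM in DKO and 147 TPM in GKO ESCs. For Foxq1, high in primed ESCs, Vmn2r24, Itgb6 and Slc39a8 each reached r = 1.00.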

How the data were processed

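RNA-seq was made from 10 libraries of 5 ESC lines. Per the labels, the authors trimmed reads with Trim Galore 0.6.6, aligned them with STAR 2.7.9a and estimated TPM per gene with RSEM 1.3.3. The labels list the GRCm38 and GRCh38 builds, the study's methods another mouse build and STAR version, and labels and methods differ on the library kit. The deposited TPM tables hold no counts and no coordinates.

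TPM was taken as log2(TPM + 1). The 12060 of 21853 genes that reached 1 TPM in 2 or more libraries entered 1 limma 3.58.1 fit (R 4.3.3) with a mean for each line, an intensity trend, and Benjamini-Hochberg adjustment within each of 6 comparisons over all tested genes. The fit was tested on simulated data. Positions came from GENCODE on GRCm39 (96.0% of tested genes matched) and promoters from RefSeq on GRCm38.p6, with no conversion between builds. The members, gene lists and tests were chosen with earlier results of these data known. All 10 members were named, and from each list some, not all, of the 3 largest called rises and 3 largest called falls, beside partners and markers that bear on a member. Others (Apob, Amn, Afp, Ttr, Apoa4, S100g, Elf5, Gata3, Dcn, Lum, Postn, Cdh5, Emcn) were chosen after their values were seen. Alternatives covered scaling, pseudocount, filters, left-out libraries and a replicate block.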

Additional observations from a re-analysis of the deposited data

Results flagged for a closer look

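Sparc is listed here because its GKO change over naïve ESCs differed from its DKO change over AKO ESCs, by a test of the difference itself. Gys1 loss and line cannot be told apart in this difference. The GKO change over naïve ESCs minus the DKO change over AKO ESCs was -0.63 on the log2(TPM + 1) scale (adjusted p = 0.00174, limma): 2 of 2 GKO libraries lay below both naïve libraries, and 2 of 2 DKO libraries lay above both AKO libraries. It held without each library in turn, from -0.67 to -0.59. None of the other 4 tested genes passed this test with all libraries, where 25.8% of all tested genes were called, so a call here was common. With 2 libraries against 2, separation alone cannot go below p = 0.333 in an exact permutation test. The share of all genes with such separation was not counted.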

How the results depend on the processing

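Of 124 recomputed counts of called members, 104 stayed within 1.5 times the reported count. Requiring a log2 change of 1 left 0 called in the GKO, DKO and GKO against DKO comparisons, 2 in primed ESCs and 0 for the difference. The difference here is the GKO change over naïve ESCs minus the DKO change over AKO ESCs. Keeping genes with a mean of 5 TPM or more left Sparc the only member tested, with 0 called in GKO, 1 in DKO, 1 in primed ESCs and 1 between GKO and DKO ESCs. A pseudocount of 0.1 left 1 between GKO and DKO ESCs. The difference gave 2 of 10 members tested without the filter, beside 2965 of 17956 genes. It gave 2 of 5 with only the lines compared and 2 of 5 without the primed libraries, beside 4499 of 12060 genes in each. With no filter and no primed libraries, an alternative chosen after seeing the data, all 10 members were tested. There 5 were called in GKO ESCs and 3 for the difference, beside 7833 and 4347 of 17468 genes. Leaving out each library in turn gave 2 to 4 in GKO, 3 in DKO, 0 in AKO, 4 to 5 in primed ESCs, 1 to 2 between GKO and DKO ESCs, and 1 to 2 for the difference, where primed library 1 or primed library 2 each gave 2. Sox7 in GKO ESCs, 0.19 and below the filter, was -0.28 relative to its chromosome median, and in primed ESCs went from 0.05 to -0.49. Adding 1 TPM shrinks changes at this level, so neither sign shows how Sox7 moved relative to its chromosome. Among the 5 tested genes, signs turned for the uncalled values below. Gata4 in DKO ESCs was 0.000407 with a pseudocount of 0.1 and -0.16 to 0.14 over left-out libraries. Over left-out libraries, Foxq1 ranged from -0.0224 to 0.0112 in GKO, -0.0126 to 0.0470 in AKO ESCs, -0.00146 to 0.0241 between GKO and DKO ESCs and -0.00127 to 0.0583 for the difference. Gata4 ranged from -0.18 to 0.12 in AKO ESCs. Dab2 ranged from -0.0549 to 0.0783 in AKO ESCs, -0.122 to 0.0835 between GKO and DKO ESCs and -0.110 to 0.0953 for the difference, and Hnf4a from -0.0307 to 0.331 between GKO and DKO ESCs. The cause was not tested. AKO calls over all genes, 27 with all libraries, ranged from 1 to 126 over left-out libraries and were 8 with the replicate block. Replicate numbers did not pair the libraries (correlations of deviations -0.13 to 0.08 over 10 pairs of lines), and the replicate block gave 3 called members in GKO, 3 in DKO, 0 in AKO, 4 in primed ESCs, 2 between GKO and DKO ESCs and 1 for the difference, the counts without it. TPM carries no depth, so counting error of the genes below 1 TPM is unknown.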
